A study of Bos taurus with 12 samples.

Results

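The myogenic regulatory factors MYOD1, MYF5, MYF6 and MYOG, the paired box factors PAX7 and PAX3 and the sine oculis homeobox factor SIX4 are described here in bovine muscle cells before and after differentiation. They are 7 of the 18436 genes in the deposited expression table, found by gene symbol, and their m6A peaks were found by the same symbols in the deposited peak lists of the GM and DM groups. Each symbol matched 1 gene.

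Primary myoblasts came from the longissimus dorsi muscle of newborn Qinchuan cattle, and according to the study's methods from a single animal. Cells at 80% density in growth medium with 20% fetal bovine serum form the GM group, and cells kept for 4 days in differentiation medium with 2% horse serum form the DM group. Each group has 3 input libraries of fragmented poly(A) RNA and 3 libraries of fragments bound by an antibody to N6-methyladenosine (IP), 12 in all. Serum, confluence and time in culture change together between the groups and cannot be told apart, and because the cells came from 1 animal, p-values measure the spread between libraries and not between animals.

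The myogenic regulatory factors are basic helix-loop-helix transcription factors that pair with E proteins at E-box sequences of muscle genes. PAX7 and PAX3 mark muscle stem and progenitor cells, MYF5 and MYOD1 mark their commitment to muscle, MYOG acts during differentiation and fusion, and MYF6, also called MRF4, in differentiated fibres. SIX4 is a homeodomain factor that acts with EYA co-activators upstream of several of these genes. m6A is the most common internal modification of mRNA and lies often near the stop codon and in the 3′UTR.

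The sequences that tie these genes to the study's own assays are its primers. The MYOD1-m6A pair was designed by the study for the methylated region of the MYOD1 transcript, and the other pairs measured MYOD1, MYOG and MYF6 mRNA. They are given 5′ to 3′, wholly in lower case, and were not placed on the genome here.
MYOD1-m6A, forward: gcccctcgggctgtatttat
MYOD1-m6A, reverse: ttcgaacacctgagcgagc
MYOD1 mRNA, forward: aaccccaacccgatttacc
MYOD1 mRNA, reverse: cacaacagttccttcgcctct
MYOG mRNA, forward: ggcgtgtaaggtgtgtaag
MYOG mRNA, reverse: cttcttgagtctgcgcttct
MYF6 mRNA, forward: gtgataactgccaaggaaggag
MYF6 mRNA, reverse: cgaggaaatgctgtccacga

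The expression values are FPKM, fragments scaled to transcript length and to the mapped fragments of the library, so levels can be set side by side between genes. They were estimated by the authors with StringTie and come without read counts, so their precision is known only from the 3 libraries per group. Summed FPKM ran from 415740 to 434458 in GM and from 386436 to 390827 in DM. Across genes, Pearson r of log2(FPKM + 1) was 0.995 to 0.997 within groups and 0.981 to 0.983 between them, and no library stood apart. Changes were fitted with limma on log2(FPKM + 1) for the 12302 genes averaging 0.5 FPKM or more over the 6 inputs, and a gene was called when its Benjamini-Hochberg adjusted p was under 0.05 and its fold on that scale over 1.5. The fold change understates the change of genes at low FPKM. By this rule 1448 genes, 11.8% of those tested, were called, 4.89% higher and 6.88% lower in DM. The balance of directions depends on the scaling: 602 genes were called higher and 846 lower as deposited, 960 and 769 after rescaling to TPM, and 678 and 704 with size factors.

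Of the 7 genes, MYF5, MYOD1 and PAX7 fell, MYF6 rose, MYOG and SIX4 passed the adjusted p but not the fold limit, and PAX3 was below the expression limit for testing. The 4 called genes are 4 of 6 tested, beside 11.8% of all tested genes. All 6 tested genes had an adjusted p under 0.05, which 42.8% of all tested genes had as well. Their median log2 fold change was -0.71, beside -0.05 over all tested genes. In all 6 the libraries of the GM and DM groups did not overlap, as in 54.1% of all tested genes. In such bulk samples, fewer cells of a type and less RNA per cell cannot be told apart.

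**Figure D1:**
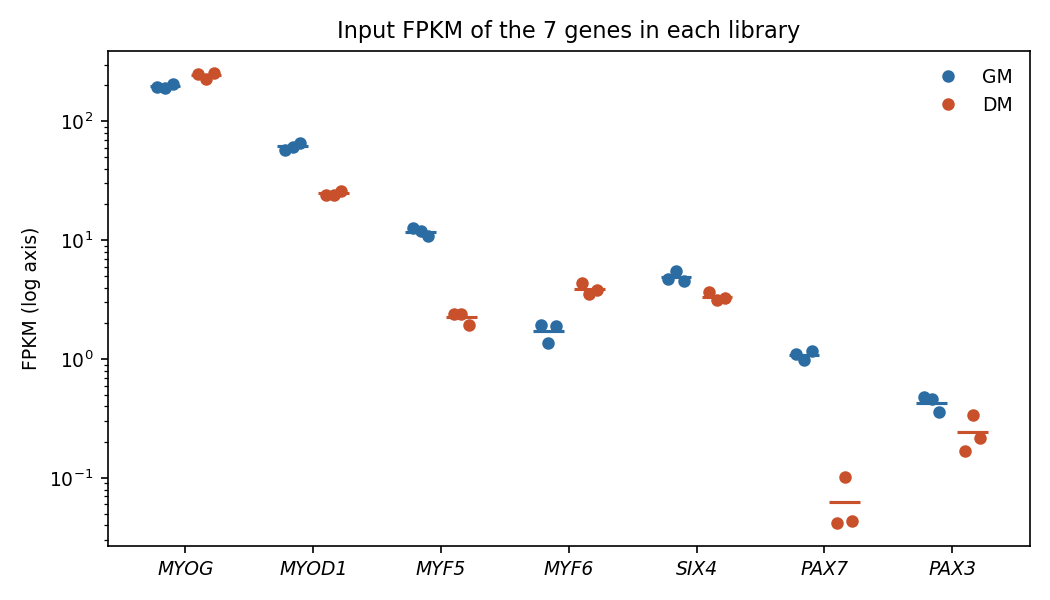
FPKM of each gene on a log axis in the 3 GM (blue) and 3 DM (orange) input libraries, with a line at the group mean. MYOG stood highest in both groups at means of 197 and 243 FPKM, and PAX7 at 0.0624 FPKM was the lowest in DM.

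MYOD1, the factor that can turn other cell types towards muscle, is ENSBTAG00000002216 on the minus strand of chr15:34794122-34796767 (ARS-UCD1.2). Its FPKM was 57.8, 61.2 and 65.7 in the GM libraries and 24.2, 24.0 and 26.1 in the DM libraries. Every DM library lay below every GM library, and the 3 values within each group were close together. The mean fell from 61.6 ± 3.94 to 24.8 ± 1.17 FPKM (SD, n = 3 each), a log2 fold change of -1.28 with SE 0.062 and a 95% interval of -1.42 to -1.13 (limma, Benjamini-Hochberg adjusted p = 2.2e-06). By mean FPKM, MYOD1 ranked 1032 among all genes in GM and 2481 in DM.

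MYF5, the first of the 4 factors to appear in the embryo, is ENSBTAG00000026972 on the plus strand of chr5:10284434-10287669. Its FPKM was 12.6, 11.97 and 10.7 in GM and 2.40, 2.41 and 1.95 in DM. The groups did not overlap, and the highest DM library was well below the lowest GM library. The mean fell from 11.8 ± 0.935 to 2.25 ± 0.261 FPKM, a log2 fold change of -1.97 with SE 0.085 and an interval of -2.17 to -1.78 (limma, Benjamini-Hochberg adjusted p = 1.2e-06). It had the largest fold change of the 6 tested genes on this scale, and on log2(FPKM + 0.1) PAX7 had a larger one. The rank of MYF5 went from 4826 to 9783.

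MYF6, ENSBTAG00000014003, lies upstream of MYF5 on the same strand at chr5:10275115-10277301, with 7132 bases between the annotated genes. Its FPKM was 1.94, 1.37 and 1.89 in GM and 4.35, 3.53 and 3.79 in DM. All DM libraries were above all GM libraries, though both groups were low. The mean rose from 1.73 ± 0.313 to 3.89 ± 0.419 FPKM, a log2 fold change of 0.84 with SE 0.105 and an interval of 0.60 to 1.08 (limma, Benjamini-Hochberg adjusted p = 0.00039). The neighbouring pair thus moved in opposite directions, and MYF6 over MYF5 went from 0.148 ± 0.0308 in GM to 1.74 ± 0.248 in DM.

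MYOG, needed for the fusion of myoblasts into fibres, is ENSBTAG00000006030 on the minus strand of chr16:797547-800444. Its FPKM was 193, 190.4 and 207 in GM and 250.5, 226 and 253 in DM. It was already high in growth medium, and the DM libraries lay a little above the GM libraries without overlap. The means were 197 ± 8.95 and 243 ± 14.9 FPKM, a log2 fold change of 0.31 with SE 0.061 and an interval of 0.16 to 0.45 (limma, Benjamini-Hochberg adjusted p = 0.0046). At a fold of 1.24 it was not called. MYOG ranked 309 in GM and 237 in DM.

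The composition of the 4 myogenic regulatory factors differed, although their summed FPKM as deposited did not move beyond the spread of the libraries. Summed, they gave 272 ± 11.7 FPKM in GM and 274 ± 15.8 FPKM in DM (two-sided exact permutation p = 0.9). Shares and ratios within a library do not depend on its scaling, but this sum does, and FPKM summed over all genes was lower in DM. The sum of the 4 was not computed after rescaling to TPM. The MYOG share of this sum was 72.7, 71.9 and 72.5% in the GM libraries and 89.0, 88.3 and 88.8% in the DM libraries. Each DM library thus held a larger MYOG share than any GM library, by 16.3 percentage points between the means. The MYOD1 share was 22.6% ± 0.721 in GM and 9.05% ± 0.395 in DM, and the MYF5 share 4.34% ± 0.512 and 0.826% ± 0.130. MYF6 went the other way, from 0.638% ± 0.109 to 1.42% ± 0.113. Within libraries, MYOG stood at 3.20 ± 0.118 times the level of MYOD1 in GM and 9.82 ± 0.470 times in DM. Each of these shares and ratios, the sum apart, had an exact permutation p = 0.1, the smallest that 3 against 3 libraries can give, and 0.11 after Benjamini-Hochberg adjustment over the 10 shares, ratios and sums computed.

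**Figure D2:**
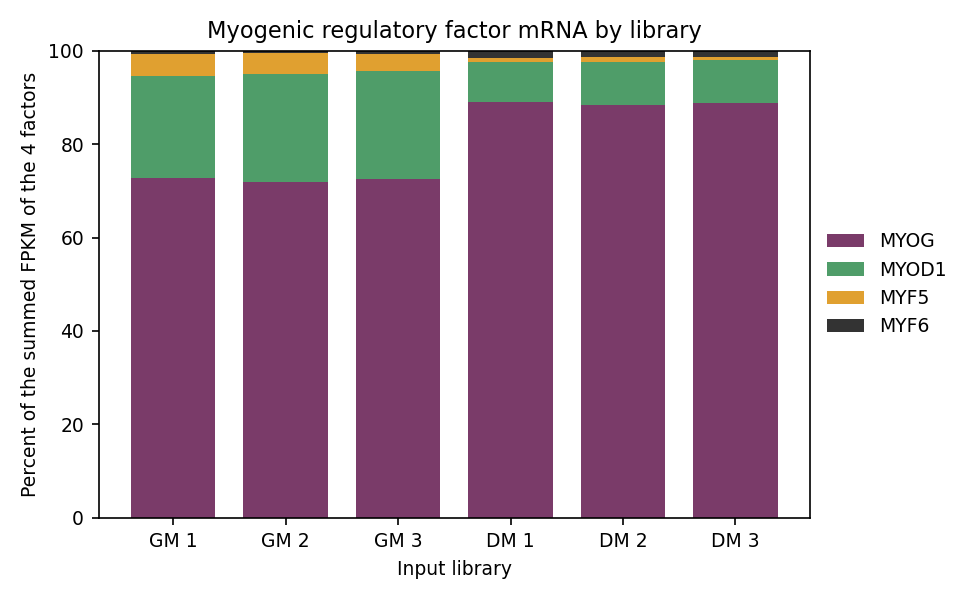
Percent of the summed FPKM of MYOG, MYOD1, MYF5 and MYF6 taken by each factor in the 3 GM and 3 DM input libraries. The MYOG share is 71.9 to 72.7% in GM and 88.3 to 89.0% in DM, while the MYOD1 and MYF5 shares are smaller in DM.

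PAX7, the defining factor of satellite cells, is ENSBTAG00000014967 on the minus strand of chr2:133926471-134029644. Its FPKM was 1.10, 0.979 and 1.17 in GM and 0.0417, 0.102 and 0.0439 in DM. It was low in GM and near 0 in every DM library. The mean fell from 1.08 ± 0.0972 to 0.0624 ± 0.0339 FPKM, so that the GM mean was 17.4 times the DM mean. On log2(FPKM + 1) this is a fold change of -0.97 with SE 0.082 and an interval of -1.16 to -0.78 (limma, Benjamini-Hochberg adjusted p = 4.5e-05). The size depends on the scale at so low a level, and was -2.88 with a pseudocount of 0.1 and -1.62 after rescaling to TPM.

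PAX3, the embryonic counterpart of PAX7, is ENSBTAG00000009950 on the minus strand of chr2:110369553-110471285. Its FPKM was 0.477, 0.459 and 0.358 in GM and 0.169, 0.340 and 0.216 in DM. The DM libraries were all below the GM libraries, the nearest values being close. The means were 0.431 ± 0.0645 and 0.242 ± 0.0885 FPKM. PAX3 was not tested in the main comparison because its mean over the 6 libraries, 0.337 FPKM, was under the limit. The GM mean was 1.78 times the DM mean. With no filter the log2 fold change was -0.21 on log2(FPKM + 1), a scale that understates changes at so low a level. Its limma, Benjamini-Hochberg adjusted p was 0.052, so a change was not detected for PAX3.

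SIX4 is ENSBTAG00000049091 on the minus strand of chr10:72874594-72885767. Its FPKM was 4.72, 5.53 and 4.51 in GM and 3.64, 3.13 and 3.26 in DM. The DM libraries lay below the GM libraries without overlap. The means were 4.92 ± 0.538 and 3.34 ± 0.265 FPKM, a log2 fold change of -0.44 with SE 0.085 and an interval of -0.64 to -0.25 (limma, Benjamini-Hochberg adjusted p = 0.0036). The fold of 1.36 was under the limit, and SIX4 was not called.

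In order of mean FPKM the genes ran MYOG, MYOD1, MYF5, SIX4, MYF6, PAX7 and PAX3 in GM, with no overlap between the libraries of neighbouring genes. In DM the order was MYOG, MYOD1, MYF6, SIX4, MYF5, PAX3 and PAX7. There MYF6 and SIX4 overlapped and no other neighbours did. MYF5 thus moved from above SIX4 to below it, and PAX7 and PAX3 changed places at the bottom. MYF6 moved above SIX4 by mean only.

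The dimer partners of the myogenic factors, the E proteins TCF3, TCF4 and TCF12, were all tested and none was called, with a median log2 fold change of -0.11. The lists of related genes used here were chosen with earlier results of these data known, so their counts are descriptions. Of their 89 tested genes other than the 7, 34 were called, 13 higher and 21 lower. Over all tested genes 11.8% were called, 4.89% higher and 6.88% lower. Of 18 repressors of the myogenic factors 10 were called lower and none higher, with a median of -0.61. Among the 18, 5 had a log2 fold change above 0. ID1, ID2 and ID3, which bind E proteins and keep them from DNA, were among the 10 called lower. ID1 was 15.3, 17.4 and 18.1 FPKM in GM and 0.998, 1.27 and 1.52 FPKM in DM, with no overlap and a log2 fold change of -2.99 (limma, Benjamini-Hochberg adjusted p = 3.7e-07). ID3 fell from a mean of 102 to 30.5 FPKM and ID2 from 45.6 to 16.7 FPKM, log2 fold changes of -1.72 and -1.40. TWIST1, which blocks MYOD1 activity, fell from 51.6 to 20.1 FPKM, a log2 fold change of -1.30. After rescaling to TPM 9 of the repressors were called lower and 1, BHLHE41, higher, and with size factors 8 were called lower. With a pseudocount of 0.1 BHLHE41 was also called higher, at 0.95. In the main fit BHLHE41 was 0.49 (limma, Benjamini-Hochberg adjusted p = 0.0026), under the fold limit. The 7 co-activators, among them EP300 and SMARCA4, had no called gene and a median of 0.08, and after rescaling to TPM SMARCD3 was called higher.

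MEF2C, of the MEF2 family that acts with the myogenic factors on muscle promoters, was 7.50, 8.04 and 7.84 FPKM in GM and 71.2, 68.2 and 70.9 FPKM in DM. It was the only called gene of the 4 in its family, and its log2 fold change of 3.02 was larger in size than that of any of the 6 tested genes (limma, Benjamini-Hochberg adjusted p = 2.4e-08). Of 30 target genes of the myogenic factors 12 were called higher and 3 lower, with a median of 0.27. CKM, muscle creatine kinase, rose from 10.2 to 42.5 FPKM, a log2 fold change of 1.97. MYL1, a myosin light chain, rose from 14.4 to 50.0 FPKM, a log2 fold change of 1.73. MYH8, perinatal myosin heavy chain, rose from 0.520 to 4.06 FPKM, a log2 fold change of 1.74, though reads of near-identical myosin genes may be shared. ITGA7, the laminin receptor subunit of muscle, fell from 21.7 to 5.16 FPKM, a log2 fold change of -1.88. The other 2 targets called lower, ACTA1 and CDKN1C, are named because they are few. ACTA1 was -0.64 and lost its call after rescaling to TPM at -0.52 and with size factors at -0.58, and its coding sequence is nearly that of other actins.

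Among the PAX genes, PAX8, a factor best known from thyroid and kidney, fell from 2.53 to 0.966 FPKM beside PAX7, and 3 of the 7 in the table were tested. Of 6 tested genes among the PAX targets and satellite cell genes 2 fell. FGFR4, a direct PAX3 target, was 3.87, 3.41 and 3.56 FPKM in GM and 0.0261, 0.114 and 0.0950 FPKM in DM, a log2 fold change of -2.10 (limma, Benjamini-Hochberg adjusted p = 6.5e-07). MET, the receptor of hepatocyte growth factor, fell from 11.4 to 3.78 FPKM, a log2 fold change of -1.38.

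Of the genes of the sine oculis, EYA and DACH families 9 were tested. EYA2, a co-activator of these factors, fell from 6.77 to 3.34 FPKM, a log2 fold change of -0.85 (limma, Benjamini-Hochberg adjusted p = 0.00021). EYA3 was 0.58 and was called higher after rescaling to TPM at 0.74 and with size factors at 0.64. Of 11 tested factors of muscle progenitors 3 were called lower, MEOX1 from 2.72 to 0.728 FPKM, LBX1 from 1.196 to 0.279 FPKM and FOXK1 from 6.46 to 3.87 FPKM. The median log2 fold change of the 11 was -0.07, beside -0.05 over all tested genes. Among the 11, 5 were above 0 and none was called higher. FOXK1 was -0.62 and lost its call after rescaling to TPM at -0.57 and with size factors at -0.56.

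**Figure D3:**
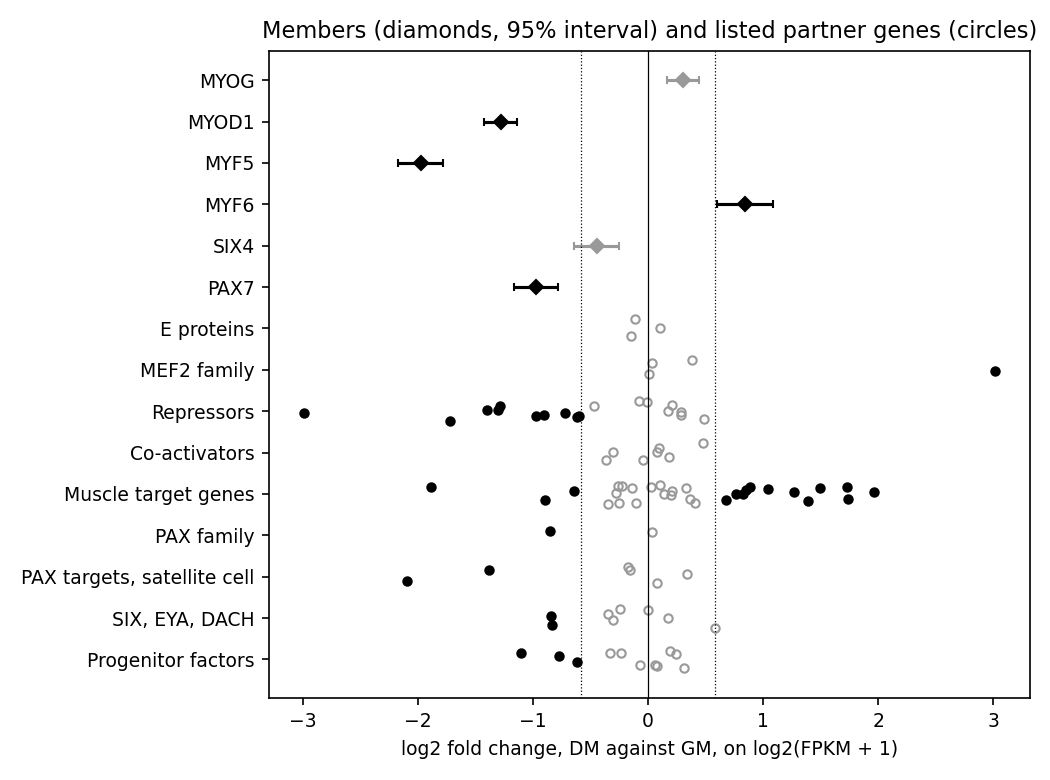
log2 fold change of DM against GM on log2(FPKM + 1) for the 6 tested genes (diamonds with 95% interval) and for the tested genes of each list (circles, spread vertically for legibility). Black is called, grey is not, and dotted lines mark a fold of 1.5. MEF2C at 3.02 and ID1 at -2.99 lie outermost.

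The cultures were checked against markers of muscle and of other cells. The 6 muscle markers summed to 626 to 652 FPKM in GM and 593 to 604 FPKM in DM. Of these markers MYOD1 and MYF5 are among the 7 genes described here, so the list is no independent check of them. DES led the sum at means of 453 and 488.5 FPKM and was not called, and 3 of the 6 were called lower, MYOD1, MYF5 and ITGA7. All marker sums are of FPKM as deposited, and FPKM summed over all genes was lower in DM. The 6 fibroblast markers summed to 7882 to 8109 FPKM in GM and 8748 to 9002 FPKM in DM, led by COL1A1 at means of 6791 and 7420 FPKM and DCN at 531 and 667 FPKM. One of them, FAP, was called, and rose from 37.5 to 105 FPKM. Markers of pericytes and smooth muscle summed to 32.6 to 35.1 FPKM in GM and 39.8 to 41.8 FPKM in DM, led by PDGFRB and CSPG4. CSPG4 rose from 3.07 to 5.82 FPKM and NOTCH3 fell from 2.13 to 0.854 FPKM. Schwann cell markers lay between 9.12 and 10.7 FPKM in sum, nearly all of it S100B. Those of adipocytes (PLIN1 and FABP4 highest), endothelium (PECAM1 and TEK) and leukocytes (CD68 and CD14) summed to at most 2.06 FPKM in any library. For each of these 3 cell types and for pericytes 4 of 5 listed markers had a row in the table, for Schwann cells 2 of 4, and no marker with a row was at 0 in all 6 libraries. The part of other cells in the changes of the 7 genes was not tested.

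For each called gene the 3 tested genes with the most similar profile were those with the smallest mean absolute difference of centred log2(FPKM + 1) over the 6 libraries. For MYOD1 these were STC2 (0.0344), CKS1B (0.0346) and POC1A (0.0358), and for MYF5 TPX2 (0.0630), KNL1 (0.0692) and ITIH5 (0.0721). CKS1B, TPX2 and KNL1 are genes of cell division. Because libraries within a group were close together, this measure mainly picks genes with a similar log2 fold change. It was -1.28 for STC2, -1.29 for CKS1B and -1.34 for POC1A, beside -1.28 for MYOD1. Shared regulation was not tested. For MYF6 they were ANKRD2 (0.0622), CRABP2 (0.0754) and CACNG1 (0.0766), of which ANKRD2 and CACNG1 are muscle genes. For PAX7 they were TUBB (0.0126), SEMA3F (0.0234) and IGFBP6 (0.0300), all of which stand far above PAX7 in FPKM. This likeness is on the log2(FPKM + 1) scale, which understates the fall of PAX7, and does not extend to FPKM itself. The PAX7 GM mean was 17.4 times its DM mean, while TUBB went from 823 to 413 FPKM, SEMA3F from 18.8 to 9.44 FPKM and IGFBP6 from 80.0 to 39.4 FPKM.

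The m6A peaks come from 1 list per group, called by the authors on its pooled libraries, and each peak has 1 fold enrichment of IP over input and no replicate error. MYOD1, MYOG, SIX4 and PAX3 carried peaks in both lists, 6 peaks in GM and 6 in DM. MYF5, MYF6 and PAX7 had none in either. Of genes within 1.5-fold of MYF5 in FPKM 75.4% had a GM peak and 77.4% a DM peak, and around MYF6 the shares were 68.8% and 82.0%. Around PAX7 they were 63.9% in GM and 38.5% in DM. Among the 1679 tested genes no longer than MYF5, 3236 bases, 47.4% had a GM peak and 54.4% a DM peak. Over all tested genes the shares were 70.9% and 78.7%. Of the 7 genes 4, or 57.1%, had a peak in each list, and of the 89 tested related genes 82 (92.1%) had a GM peak and 83 (93.3%) a DM peak.

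In MYOD1 a single peak lay in the 3′UTR and reached the annotated end of the gene in both lists. It was chr15:34794122-34794982 in GM, 861 bases at a fold enrichment of 3.12, and chr15:34794122-34795012 in DM, 891 bases at 4.57. The DM value was thus 1.46 times the GM value, a log2 ratio of 0.55, above that of 84.3% of the 10239 pairs of 1 GM and 1 DM peak. The same transcript was lower in DM in all input libraries, and with 1 pooled value per group the ratio has no error. Its log10 p was -316 in GM and -97.7 in DM.

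In MYOG the peak was short, strong and again at the end of the 3′UTR. It was chr16:797547-797754 in GM, 208 bases at a fold enrichment of 13.5, and chr16:797547-797813 in DM, 267 bases at 15.6. These exceed 96.3% and 97.2% of the peaks in their lists. The log2 ratio was 0.21, above that of 62.8% of the pairs.

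SIX4 had 2 peaks in each list. The larger spanned 3 exon blocks, with 1614 bases at a fold enrichment of 5.87 in GM (chr10:72877341-72885080) and 1793 bases at 7.57 in DM (chr10:72877073-72884991). Their log2 ratio was 0.37, above that of 75.0% of the pairs, and the authors' annotation calls the GM peak exonic and the DM peak 3′UTR. The smaller lay in the first exon, 270 bases at 3.22 in GM (chr10:72885229-72885498) and 389 bases at 2.88 in DM (chr10:72885379-72885767), the latter starting at the annotated gene start. These 2 shared 120 bases, 44.4% of the GM peak and 30.8% of the DM peak, and their log2 ratio was -0.16.

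PAX3 had a 3′UTR peak of 180 bases at a fold enrichment of 12.0 in GM (chr2:110370270-110370449) and of 748 bases at 11.7 in DM (chr2:110369941-110370688), a log2 ratio of -0.04. The support was weak, with a log10 p of -2.91 and -2.96, against -327 and -515 for MYOG at similar enrichment. A 5′UTR peak of 150 bases (chr2:110471046-110471195, fold enrichment 5.44, log10 p -1.87) was listed in GM only. An exon peak of 120 bases in 2 blocks (chr2:110403438-110466672, fold enrichment 3.55, log10 p -2.02) was listed in DM only. Each list held a further peak whose blocks all lay within PAX3, at 3.39 in GM (log10 p -3.27) and 4.26 in DM (log10 p -4.0). The authors' annotation gives it to bta-mir-2284y-5, an 89-base gene on the opposite strand that none of its blocks touches, so by symbol it does not count among the PAX3 peaks.

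**Figure D4:**
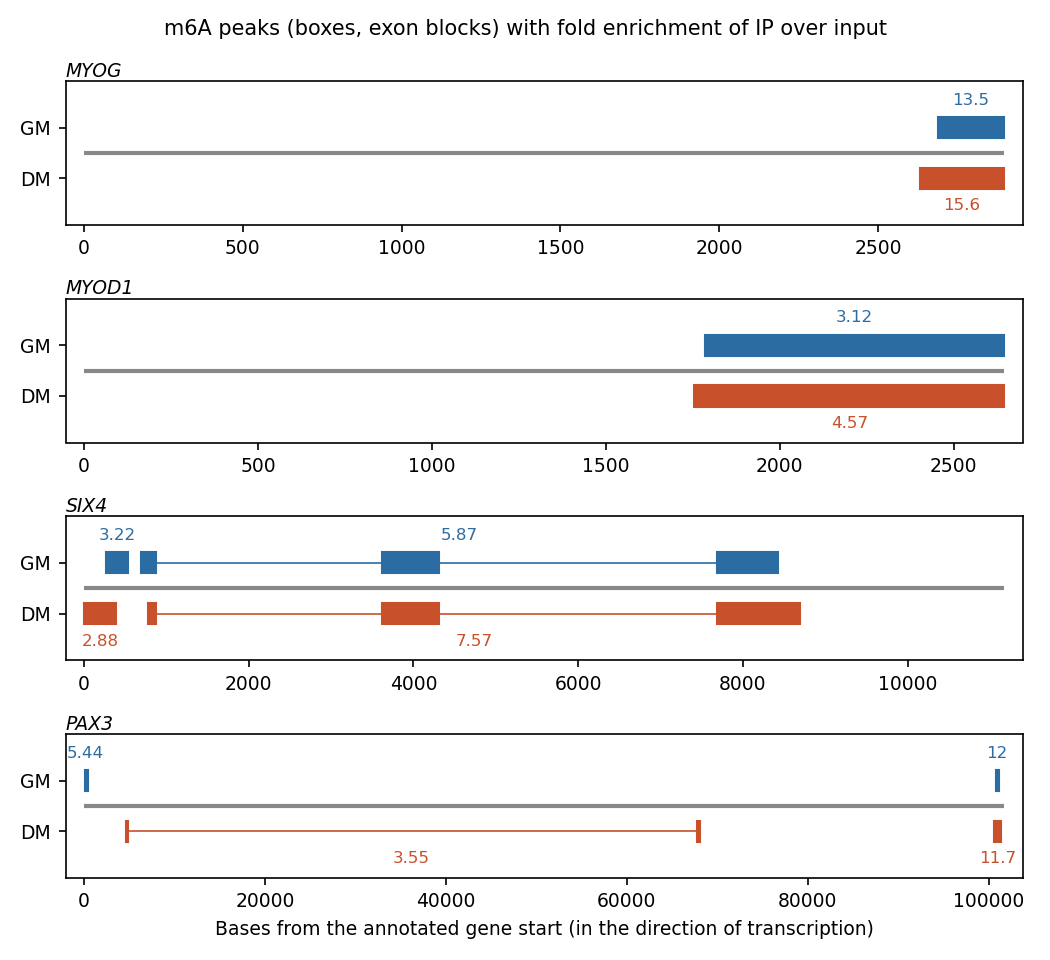
Peaks of MYOG, MYOD1, SIX4 and PAX3 in GM (blue) and DM (orange) by distance in bases from the annotated gene start along transcription, boxes being exon blocks joined by lines and numbers the fold enrichment. The grey line is the gene. MYOD1 and MYOG peaks end at the gene end, and the larger SIX4 peak has 3 blocks in each group. PAX3 peaks lie near both ends in GM, and near the 3′ end and within the gene in DM.

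In none of the 5 pairs of peaks in these genes did the ratio of the lists pass 1.5-fold either way, a limit that 14.2% of all pairs passed upwards and 10.8% downwards. Of the 5 log2 ratios, 3 were positive and 2 negative, around a median of 0.07 over all pairs. MYOD1 at 1.46 was nearest to the limit.

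**Figure D5:**
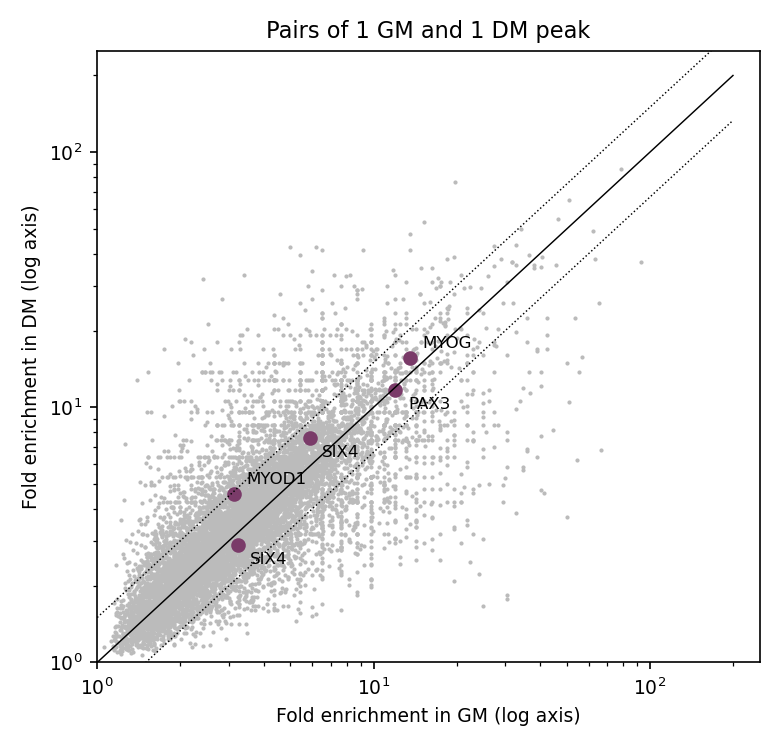
Fold enrichment in DM against GM, both on log axes, for all 10239 pairs of 1 GM and 1 DM peak (grey) and for the 5 pairs in MYOD1, MYOG, SIX4 and PAX3 (purple). The solid line is equality and dotted lines mark a ratio of 1.5. All 5 pairs lie between the dotted lines, MYOD1 closest to the upper one.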

How the data were processed

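Per the study's methods, the authors aligned strand-specific reads with HISAT2 to ARS-UCD1.2. The deposited FPKM of the 6 input libraries, for 18436 genes on 29 autosomes, were made by the authors with StringTie; whether it used strand is not given in the sources used here. The deposited peak lists were made by the authors with exomePeak on each group's pooled libraries and annotated with ChIPseeker. They give a linear fold enrichment (ratio of IP over input), an unadjusted p-value as the deposited score column, and deposited log10 columns of that p-value and its false discovery rate.

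The 7 genes and the lists were chosen with earlier results of these data known. Named were the 7 genes, up to 4 called genes per list by absolute log2 fold change, the 2 highest markers per cell type, and 3 most similar profiles per called gene, of which some are not reported here. FAP, CSPG4, NOTCH3, ACTA1, CDKN1C and genes whose call moved with the scaling were added after their values were seen, as were the E proteins, EP300 and SMARCA4.

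limma 3.58.1 in R 4.3.3 was tested on simulated data. Peaks were paired by at least 1 shared base of exon blocks, with the strand taken from the annotated gene, with scipy 1.17.1, numpy 2.4.6 and pandas 2.3.3 under Python 3.11.15. Figures used matplotlib 3.10.9. Alternatives covered pseudocount, filter, scaling, thresholds, variance trend, replicate block, libraries left out and peak limits. No precision from read depth can be given, since the files used hold no counts.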

Additional observations from a re-analysis of the deposited data

How the results depend on the processing

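MYOD1, MYF5, MYF6, MYOG and SIX4 kept their direction and their call, or lack of one, under the 13 alternatives to the pseudocount, filter, scaling, fit and libraries, and PAX7 under 12, since at a mean of at least 1 FPKM it is not tested. The thresholds did move calls: at a fold over 2 MYF6 and PAX7 lost theirs, and with no fold limit MYOG and SIX4 gained one. With 1 library left out, log2 fold changes ran from -1.32 to -1.23 for MYOD1, -2.03 to -1.90 for MYF5, 0.74 to 0.90 for MYF6, 0.28 to 0.36 for MYOG, -1.01 to -0.94 for PAX7 and -0.50 to -0.37 for SIX4, and 1459 to 1503 genes were called. With a fold over 2, 504 genes (232 higher, 272 lower), 2 of the 7 genes and 17 related genes were called, and with no fold limit 5268 genes (1980 higher, 3288 lower) and 58 related genes. Rescaling to TPM raised the genes called higher to 960 and their share of calls from 41.6% to 55.5% (49.1% with size factors), and shifted the median log2 fold change over tested genes by 0.11. Centred on the median of all pairs, log2 ratios of fold enrichment were 0.48 for MYOD1, 0.14 for MYOG, 0.29 and -0.23 for SIX4 and -0.11 for PAX3. A false discovery rate under 0.001 removed the peaks annotated to PAX3, and an overlap of 50% of both peaks the PAX3 pair and the first-exon SIX4 pair. The DM peak within PAX3 that is annotated to bta-mir-2284y-5 had a log10 false discovery rate of -3.41 and passed this limit. Libraries of the same number did not deviate together (r of -0.08, -0.12 and -0.21), and the fit with the replicate block called 1459 genes and changed none of 11 results.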
